A study of Mus musculus with 31 samples.

Results

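NIPBL and Rad21 peaks were examined across 40 kb of mouse chromosome 12 that hold the immunoglobulin genes Ighd and Ighm, the switch region of Ighm, the promoter upstream of it and the intronic enhancer Emu. Members were all deposited peaks that overlapped chromosome 12 from 114.64 to 114.68 Mb in mm9, whatever their strength. There were 421 of them among 17061930 deposited peaks, 247 from NIPBL and 174 from Rad21, and they came from 24 of 26 peak lists. The other two lists, both of i3CBEs cells, held 0 peaks in the window.

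The series used chromatin immunoprecipitation and sequencing (ChIP-seq) in AID-deficient C57BL/6 mouse B cells, where AID is the enzyme that starts class switching, and its design text places the work in a study of cohesin loop extrusion during switching at the heavy chain locus. Primary mature splenic B cells were either unstimulated or given anti-CD40 and IL-4 for 48 h, with 3 NIPBL and 3 Rad21 libraries in each state. CH12F3, a mouse B lymphoma line titled CH12F3NCdel in these samples, was unstimulated (2 NIPBL and 3 Rad21 libraries) or given anti-CD40, IL-4 and TGF-β for 24 h (2 NIPBL and 4 Rad21 libraries). A derived line titled i3CBEs was studied with Rad21 after the same 24 h stimulation (3 libraries), and neither i3CBEs nor NCdel is spelled out in the labels. All groups, controls included, lack AID, so no group shows cells that can switch. Stimulus and time differ between the cell types. The 26 lists each come from 1 library, the sources name no animal or culture for any replicate, and the p-values below thus reflect spread that may be no more than technical. The comparisons below reuse the same libraries and are not independent of each other.

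NIPBL loads the cohesin ring onto DNA and helps it to extrude loops, and Rad21 is the subunit that closes the ring, so the former marks where loading factors sit and the latter where cohesin is held. In B cells the Emu enhancer lies in the intron between the joined variable-region exon and the Ighm constant exons. It drives transcription through the switch region of Ighm, the donor in switching from IgM to another isotype, and Ighd lies just beyond Ighm. V(D)J joining removes the DNA between joined segments, so mature B cells and B lymphoma lines do not carry the whole germline sequence upstream of Emu; copy number was not analysed here. In RefSeq's table for GRCm38.p6, with rising position, the other constant-region genes are followed by Ighd, Ighm and then the J segments, so the low end of the window faces the other constant genes and the high end faces the J segments. Places below are given by mm9 position, since no mm9 annotation was used here to draw the borders of each element.

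Lists ran from 42659 to 1332862 peaks. Without read counts in them the depth is unknown. To compare libraries, the 20000 peaks of highest -log10 p in each list were kept, and the value of a region is the percent of its bases that these peaks cover. Only 17 of the 421 peaks in the window ranked that high, in 9 lists. Fold enrichment and -log10 p are the authors' values for a peak in its own list. The material is bulk chromatin, so a protein held in more cells and a protein held more firmly per cell cannot be told apart.

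**Figure D1:**
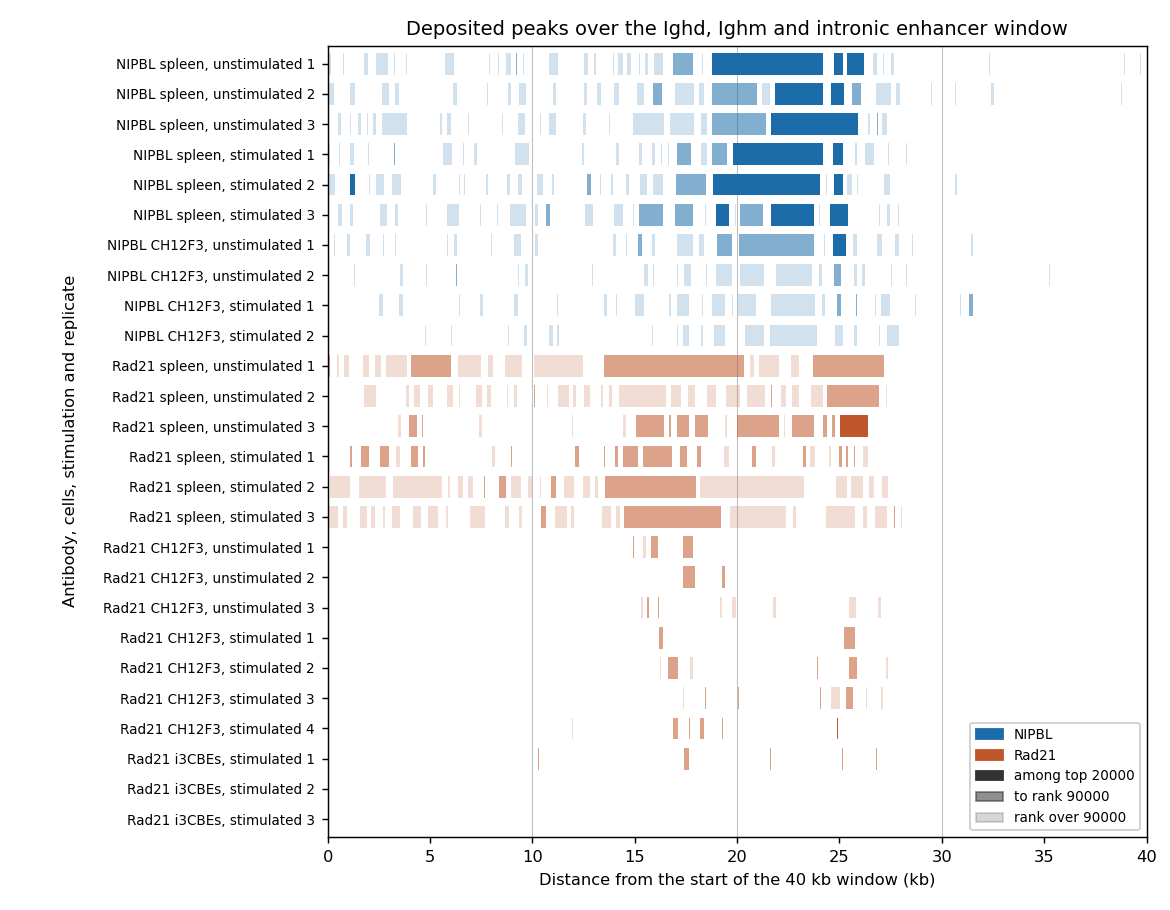
Every deposited peak over the 40 kb window, with 1 row for each of the 26 libraries and the distance from the start of the window in kb on the x axis. Blue is NIPBL and orange is Rad21, and the darkest bars are among the 20000 strongest peaks of their list. The darkest blue bars of the 6 splenic NIPBL libraries lie almost wholly in the third 10 kb and at the end of the second.

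In splenic B cells NIPBL held a strong block in the third 10 kb of the window, chr12:114660001-114670000, which had the highest mean coverage of the 4 bins. The 20000 strongest peaks covered 54.4%, 29.4% and 42.5% of this bin in unstimulated replicates 1 to 3. After stimulation they covered 47.1%, 45.0% and 29.9%. Both states span nearly the same range, and the lowest of the 6 values is above every value of the other groups. Over the whole 40 kb, coverage was 16.6%, 7.34% and 10.6% without stimulation and 12.3%, 14.7% and 9.02% with it.

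Strong peaks of all 6 splenic libraries shared 2 features of this block. A broad stretch of 1928 bp, chr12:114661852-114663779, was covered by a strong peak in each of them. A narrow stretch of 429 bp, chr12:114664722-114665150, was covered in each of them too, and these were the only bases of the window that strong peaks of all 6 shared. Unstimulated replicate 1 alone had a further strong peak in the bin, 114665374-114666177, above both features. The peaks over the broad stretch were 2103 to 5414 bp wide, and in 3 lists the strong peak began below 114660001 and so reached into the second bin. Between both features lies a gap: the bases 114664377-114664522 were free of NIPBL peaks of any strength in 5 of 6 splenic lists, and in unstimulated replicate 3 a single peak of 4250 bp, 114661635-114665884, spanned broad stretch, gap and narrow stretch alike. The other splenic lists thus show 2 separate peaks where this list shows 1.

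The strongest peak of the window covered the broad stretch in 4 of the 6 splenic lists, in 1 of them together with the narrow one, and the narrow stretch alone in the other two. In unstimulated replicate 1 it was the narrow peak, 114664722-114665162, with 21.4-fold enrichment and a -log10 p of 52.4. Unstimulated replicates 2 and 3 had their strongest peak over the broad stretch, with 18.9-fold and 13.4-fold enrichment. Stimulated replicates 1 and 3 also had it there, with 12.8-fold and 18.2-fold enrichment, and stimulated replicate 2 had it over the narrow stretch with 10.1-fold enrichment. Each of these peaks stood high in its own list, within the leading 0.0283% to 0.388% of its peaks. In stimulated replicate 3 the peak had rank 377 in a list of 1332862.

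**Figure D2:**
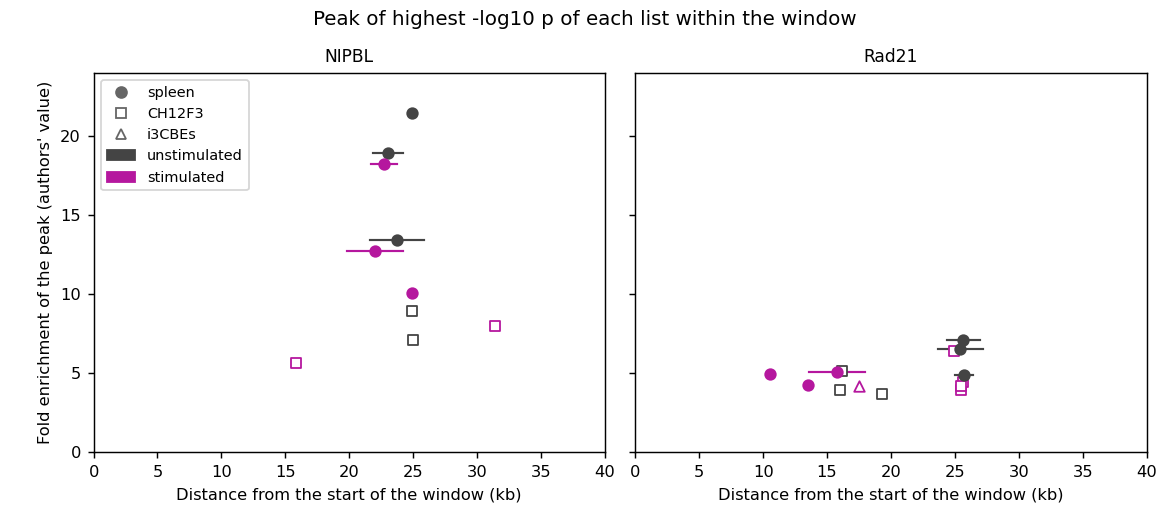
Place and fold enrichment of the peak of highest -log10 p that each list holds in the window, NIPBL on the left and Rad21 on the right. Horizontal lines give the width of the peak, and the 2 lists with no peak there are left out. Splenic NIPBL peaks (filled circles, left) sit between 10.1-fold and 21.4-fold, and those of Rad21 lie at 7.10-fold or lower.

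No difference in NIPBL between stimulated and unstimulated splenic B cells was called in this window, and with the 20000 strongest peaks the values of both states overlapped. Coverage of the third bin was 40.6% ± 9.39 (SD, n = 3) with stimulation and 42.1% ± 12.5 (SD, n = 3) without it, a difference of -1.46 points (SE 7.60, limma, adjusted p = 0.994). In the second bin the difference was 2.59 points (SE 4.20, limma, adjusted p = 0.826). Neither of the 2 bins that could be tested was called, nor did either have an unadjusted limma p under 0.05, where 2.98% of all tested bins were called. Over 40 kb the means were 12.0% ± 2.86 and 11.5% ± 4.72 (exact permutation test, two-sided, p = 1, the smallest that 3 against 3 libraries allow being 0.1). In the third bin the states were apart once weak peaks were counted. With all deposited peaks the third bin was covered to 53.3%, 50.9% and 43.9% after stimulation and to 58.9%, 57.0% and 60.9% without it. These groups did not overlap, but the difference of -9.59 points was not called (limma, adjusted p = 0.475), in a setting that called 0.598% of all tested bins. Over 40 kb the difference was then -4.33 points, at the smallest p that the exact permutation test allows (p = 0.1, adjusted p = 0.18 over 9 comparisons).

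CH12F3 cells had little of this strong NIPBL signal. Unstimulated replicate 1 had 6.14% of the third bin covered by its 20000 strongest peaks, from 1 peak over the narrow stretch, 114664691-114665304, with 7.11-fold enrichment. Unstimulated replicate 2 and both stimulated replicates had 0%. All 4 values are below the lowest splenic one. With stimulation as a covariate, coverage of the third bin was lower in CH12F3 than in spleen, with a difference of -39.8 points (1.54% ± 3.07, n = 4, against 41.4% ± 9.93, n = 6; SE 4.94, limma, adjusted p = 0.00232). The call was lost with the 40000 or 90000 strongest peaks, with an equal covered length in every list and with no filter on bins, while the difference stayed between -39.8 and -30.5 points in these settings. The 20000 strongest peaks covered 5.13 to 7.70 Mb of the genome in 3 of the 4 CH12F3 lists and 17.0 Mb in the other, against 11.6 to 15.6 Mb in spleen, and the part of this in the difference was not tested. Peak names of both second CH12F3 replicates name a control, while those of the first replicates and of all splenic lists name none. The part of this was not tested either. At the 20000 strongest it was the only one of 2 tested bins to be called, where 1.36% of all tested bins were called and 1.31% were called lower. In the second bin the difference was -5.36 points and was not called (limma, adjusted p = 0.370). All 4 CH12F3 libraries were at 0% there, so that bin passed the filter through spleen alone and its direction was fixed in advance. The third bin was taken for its mean coverage over all lists, which the 6 splenic NIPBL libraries largely set. Only 1 CH12F3 library had coverage there, so the test of that bin is not independent of the choice. Over 40 kb the difference was -11.4 points (exact permutation test within states, p = 0.01, the smallest that 100 arrangements allow, adjusted p = 0.045 over 9 comparisons), and without any one of the 10 libraries it was no longer called, fewer arrangements being possible.

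The place of the peaks was shared even though their rank was not. With all deposited peaks, however weak, the bases that all 10 NIPBL lists covered came to 3116 bp, and 1777 of them formed 1 stretch, 114661902-114663678, inside the broad splenic feature. The 4 shorter shared stretches of 100 bp or more lay at 114657432-114657646, 114659006-114659387, 114660397-114660918 and 114664901-114665083, the last inside the narrow splenic feature. Each NIPBL library covered every base from 114662001 to 114663000, and it was the only 1 kb of the window with that property. In CH12F3 the peaks over the broad stretch were 6.51-fold and 5.23-fold enriched without stimulation and 4.80-fold and 3.97-fold with it, against 9.53-fold to 18.9-fold in spleen. They ranked at 1.62%, 30.9%, 29.4% and 48.9% of their lists, whereas the splenic ones were all within the leading 0.476%. Both splenic features were defined by peaks among the 20000 strongest of all 6 splenic lists, so high splenic ranks there were required by definition. CH12F3 lists met no such requirement. The contrast in fold and rank is thus drawn from the values that chose the stretch. Lists of different lengths do not share a scale, so these ranks are descriptions.

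Counting all deposited peaks also changed which bins separated the cell types. In the third bin the 4 CH12F3 libraries then covered 38.7% to 50.6% and the 6 splenic libraries 43.9% to 60.9%, which overlap (difference -10.8 points, limma, adjusted p = 0.341). In the first bin CH12F3 was lower by a difference of -14.1 points (6.47% ± 3.28 against 20.6% ± 3.15; limma, adjusted p = 0.0174). In the second bin the difference was -20.9 points (18.4% ± 5.36 against 39.3% ± 7.66; limma, adjusted p = 0.0462). In both of these bins the cell types did not overlap, and 1.91% of all tested bins were called under this setting, 0.28% as lower. Coverage of these bins was thus more extensive in spleen, where the lists ran from 890499 to 1332862 peaks against 1070647 to 1321413 in CH12F3. In the first bin it came from weak peaks, the 90000 strongest covering 0.128% in CH12F3 and 0.57% in spleen. In the second bin the cell types were already apart at that depth (2.25% ± 4.51 against 20.5% ± 6.55). That difference of -18.3 points was not called (limma, adjusted p = 0.133), where 0.249% of tested bins were called.

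For stimulation and strong NIPBL peaks in CH12F3, each bin of the window was covered in fewer than 2 of the 4 libraries and so was left out of the bin fit. With no such filter the third bin differed by -3.07 points (limma, adjusted p = 0.583). The single peak of unstimulated replicate 1 gave a mean of 0.768% ± 1.09 of the 40 kb (n = 2) against 0% after stimulation (exact permutation test, p = 1, the smallest possible being 0.333). Among the 90000 strongest peaks, a depth added after the data were seen, unstimulated replicate 1 covered 42.9% of the third bin and unstimulated replicate 2 covered 3.34%, against 2.53% and 0% in the stimulated ones. The high value at this depth is that of 1 library, whose peak names give no control, while those of unstimulated replicate 2 do. When only peaks at or above a -log10 q of 5 were kept, both unstimulated libraries were high, covering 12.98% and 11.5% of the 40 kb window against 3.79% and 0.748% after stimulation. In the third bin that setting gave a difference of -32.4 points, which was not called (limma, adjusted p = 0.953). Genome-wide, limma called 0% of tested bins in this comparison at both depths, while 506 higher and 764 lower bins had an unadjusted p under 0.05 among the 20000 strongest peaks.

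**Figure D3:**
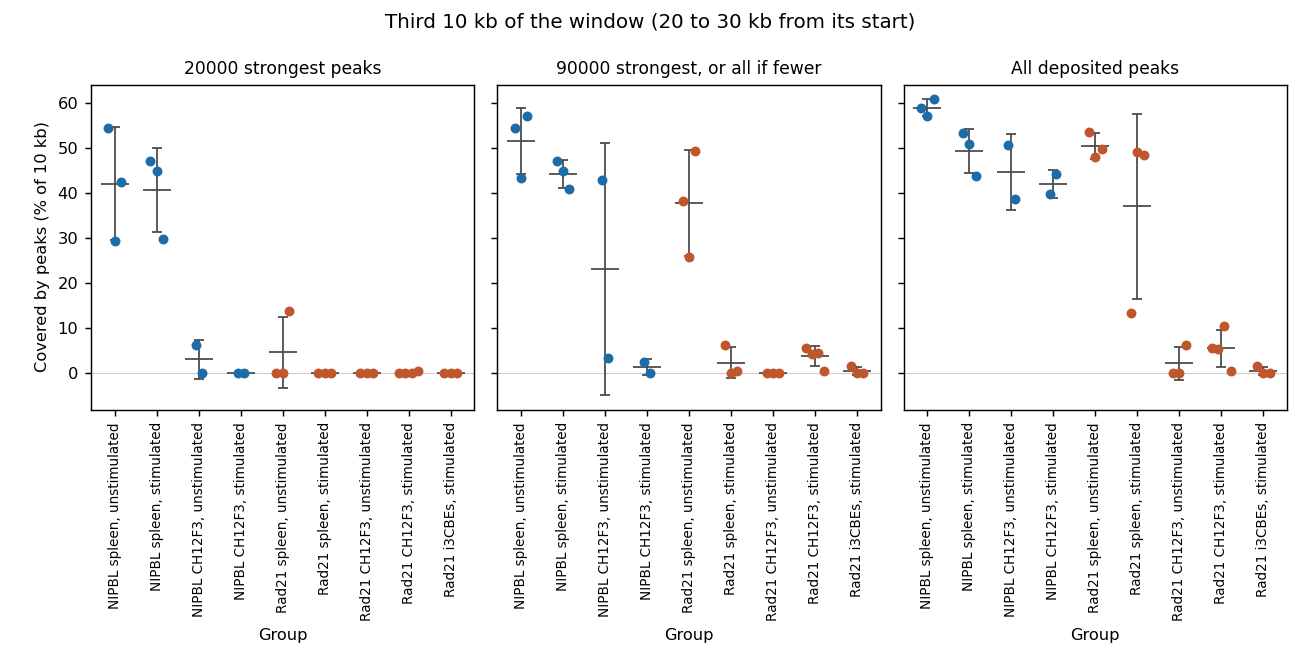
Percent of the third 10 kb bin covered by peaks in each library, at 3 depths of the lists. Points are libraries, with blue for NIPBL and orange for Rad21, and bars give the mean and SD of each group. Among the 20000 strongest peaks the splenic NIPBL libraries stand apart at 29.4% to 54.4%, and with all deposited peaks the CH12F3 NIPBL libraries reach 38.7% to 50.6% and 5 of the 6 splenic Rad21 libraries 48.0% to 53.6%, the other one being at 13.4%.

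Few Rad21 peaks of the window were among the strongest of their lists. Among the 20000 strongest peaks only 2 Rad21 libraries had any coverage of the window. Unstimulated splenic replicate 3 covered 13.7% of the third bin through 1 peak of 1372 bp, and stimulated CH12F3 replicate 4 covered 0.51% through 1 peak of 51 bp, 114664865-114664915. The remaining 14 libraries were at 0%. Strong Rad21 peaks in the locus lay elsewhere: of the 40 bins of 10 kb from 114.3 to 114.7 Mb, the highest mean in splenic Rad21 was in 114450001-114460000, at 41.0% without stimulation and 33.0% with it. With weaker peaks this order changed. Counting all deposited peaks, the second bin of the window led the 40, at 57.7% without stimulation and 58.1% with it. The highest outside the window was then 45.2% and 48.9%. Among the 90000 strongest the second bin led after stimulation (42.4% against 40.4%) and was in place 4 without it.

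In unstimulated splenic cells the strongest Rad21 peaks of the window lay at 1 place. In each of the 3 unstimulated lists the strongest peak of the window covered all of chr12:114665033-114666404, 1372 bp that begin within the narrow NIPBL feature and run toward the J segments. The peak was 114663688-114667171 in replicate 1 with 6.55-fold enrichment, 114664407-114666934 in replicate 2 with 7.10-fold, and 114665033-114666404 in replicate 3 with 4.91-fold. These bases are the longest run that all 3 unstimulated splenic lists covered. Their coverage of 100% there was fixed by this definition, and other lists could only equal it or fall below it. After stimulation the 3 splenic lists covered 31.4%, 65.7% and 66.6% of them, the strongest of these peaks being 3.86-fold to 4.10-fold enriched, and the strongest peak of the window lay at 114653488-114653538, 114653558-114657975 and 114650421-114650667. This stretch was chosen after its values were seen and is given without a test.

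**Figure D4:**
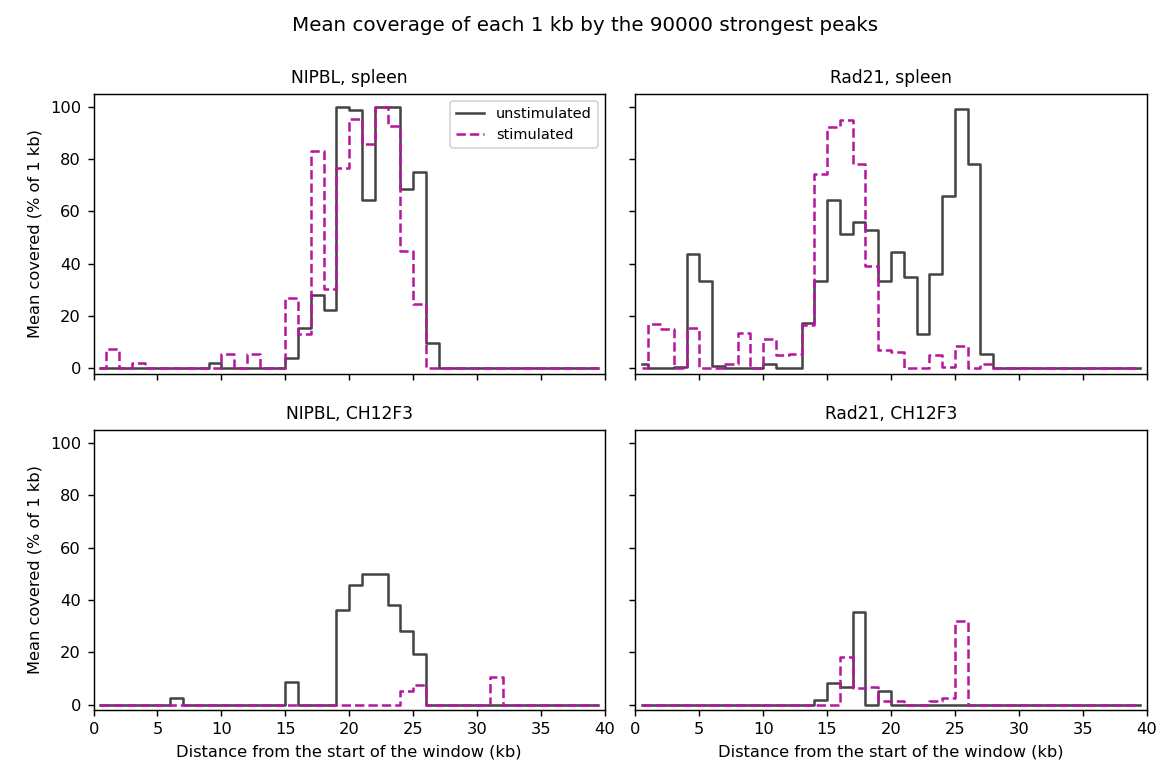
Mean percent of each 1 kb of the window covered by the 90000 strongest peaks of each list (the whole list where it is shorter), for NIPBL on the left and Rad21 on the right. Solid lines are unstimulated and dashed lines stimulated libraries, with spleen above and CH12F3 below. In unstimulated spleen Rad21 reaches 98.9% in the kilobase that starts 25 kb into the window, and after stimulation 8.57% there and 94.8% in the one that starts at 16 kb.

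Among the 90000 strongest peaks, Rad21 coverage of the third bin was 38.2%, 25.8% and 49.3% in unstimulated splenic libraries and 6.29%, 0% and 0.53% in stimulated ones. The groups did not overlap, but the difference of -35.5 points (SE 7.40, limma) was not called (adjusted p = 0.125 over all tested bins), and limma called 0% of tested bins at this depth, while 1033 bins were higher and 5189 were lower with an unadjusted p under 0.05. In the second bin the values ran from 0.51% to 65.2% without stimulation and from 30.7% to 49.8% with it (difference 11.4 points, limma, adjusted p = 0.827). All 3 stimulated lists covered 114655416-114656843 at this depth, and with all deposited peaks 1002 of these bases, 114655416-114656417, were covered in all 6 splenic Rad21 lists. List length differed within both states: 292078, 1177389 and 152152 peaks without stimulation, and 149409, 1166191 and 1236385 with it. The part of list length in these values was not tested. With the 20000 strongest peaks the window mean was 1.14% ± 1.98 (n = 3) without stimulation and 0% with it (exact permutation test, p = 1). No bin of the window was covered in 2 libraries at that depth, so none entered the bin fit, in which 2.82% of all tested bins were called.

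In CH12F3 cells Rad21 had 2 to 8 peaks in the window per list, against 16 to 29 in spleen, from lists of 95464 to 271662 peaks. No base was covered in all libraries of either state. At the 1372 bp stretch, stimulated replicates 1, 2 and 3 each had their strongest peak of the window, covering 40.7%, 27.1% and 29.2% of it with 3.96-fold, 4.47-fold and 4.22-fold enrichment. Stimulated replicate 4 had 0% there, and of the unstimulated lists only replicate 3 had a peak, covering 25.1%. Among the 90000 strongest peaks the third bin was covered to 5.58%, 4.23%, 4.52% and 0.51% after stimulation and to 0% in all 3 unstimulated libraries. The groups were apart at this depth, but the difference of 3.71 points (SE 1.08, limma) was not called (adjusted p = 0.626), in a comparison in which limma called 0% of tested bins and 828 higher and 4641 lower ones had an unadjusted p under 0.05. With 0% in every unstimulated library the direction of this difference was fixed in advance. The bin fit ignores the replicate numbers. In a fit with a replicate block, added after the data were seen, stimulated replicate 4 has no unstimulated partner and adds nothing to the difference. The difference was then 4.78 points and was not called either (limma, adjusted p = 0.776), with 0% of tested bins called. With the 20000 strongest peaks no bin of the window was covered in 2 libraries, and 0.0262% of all tested bins were called. The window means were then 0.0319% ± 0.0638 (n = 4) after stimulation and 0% (n = 3) without it (exact permutation test, p = 1).

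Stimulated i3CBEs cells had 5 Rad21 peaks in the window in replicate 1 and 0 in replicates 2 and 3. The 5 peaks covered 1.11% of the 40 kb, and the strongest, 114657407-114657645, was 4.21-fold enriched. Stimulated CH12F3 lists covered 1.99%, 3.04%, 2.88% and 1.63% with all their peaks. The i3CBEs lists hold 97738, 53237 and 42659 peaks, so that those without a peak in the window are also the shortest of all 26. With the 20000 strongest peaks of each list all 3 i3CBEs libraries were at 0% and CH12F3 at 0.0319% ± 0.0638 (exact permutation test, p = 1). No bin of the window could be tested with limma, in a comparison that called 0.411% of tested bins.

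Rad21 in CH12F3 and spleen could be compared only weakly with strong peaks. In the third bin the difference, CH12F3 minus spleen with stimulation as a covariate, was -2.07 points (SE 1.83, limma, adjusted p = 0.408), in a comparison that called 19% of all tested bins. Unstimulated splenic replicate 3 supplied all of the splenic coverage, and without it the difference was 0.075 points. With all deposited peaks CH12F3 was lower in the first 3 bins, with differences of -35.4, -52.3 and -39.4 points, and the cell types did not overlap (limma, adjusted p = 0.000276, 0.000526 and 0.000651). That setting called 8.26% of all bins, 8.07% as lower, and it sets CH12F3 lists of at most 271662 peaks beside splenic lists of up to 1236385. In the first bin all 7 CH12F3 libraries were at 0%, there and at the 90000 strongest, so its direction was fixed in advance. Among the 90000 strongest peaks of each list CH12F3 was lower in the second bin, by a difference of -32.7 points (4.32% ± 3.17, n = 7, against 36.7% ± 22.4, n = 6; limma, adjusted p = 0.0193). The cell types overlapped there, and 3.97% of all tested bins were called, 1.79% as lower. In the first and the third bin the differences at this depth were -7.10 and -16.9 points and were not called (limma, adjusted p = 0.139 and 0.0955).

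Within spleen, the third bin separated both proteins. NIPBL covered 39.1 points more of it than Rad21 with stimulation as a covariate (41.4% ± 9.93 against 2.29% ± 5.60, n = 6 each; SE 4.47, limma, adjusted p = 2.1e-05), and the 6 NIPBL values were all above the 6 Rad21 values. The second bin was 5.36 points higher with NIPBL (SE 2.15, limma, adjusted p = 0.0497), although NIPBL itself was at 0% there in 2 libraries. Rad21 was at 0% there in all 6 libraries. The bin thus passed the filter through NIPBL alone, and the direction of its difference was fixed in advance. The third bin had coverage in only 1 Rad21 library and was taken for a mean coverage that splenic NIPBL largely set. Its test is not independent of that choice. Both tested bins were thus called, among 58.3% of all tested bins, 22.9% as higher with NIPBL. Over the 40 kb NIPBL covered 11.2 points more (exact permutation test within states, p = 0.005, the smallest that 400 arrangements allow, adjusted p = 0.045 over 9 comparisons). The second bin's call rested on the depth of the lists: with all deposited peaks NIPBL was lower there than Rad21, by a difference of -18.6 points (limma, adjusted p = 0.0411, where 25.3% of bins were called), and in the third bin it was 10.4 points higher and not called (adjusted p = 0.227). The control named in the peak names also differs: all Rad21 lists name one and no splenic NIPBL list does, and its part in the difference was not tested.

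NIPBL and Rad21 peaks overlapped in part. Counting bases covered in 2 or more libraries of each protein and using all deposited peaks, 7597 bp were shared in unstimulated spleen, 67.8% of the NIPBL bases and 54.5% of the Rad21 bases. In stimulated spleen 6515 bp were shared, 68.0% of the NIPBL bases and 48.4% of the Rad21 bases. Among the 90000 strongest peaks the shared bases came to 1773 bp in unstimulated spleen (27.3% of NIPBL, 28.3% of Rad21) and to 807 bp in stimulated spleen (12.7% and 21.0%). At the 20000 strongest, 0 bp of the window were covered in 2 or more Rad21 libraries of either state. The overlap of 0 bp at that depth was therefore fixed and does not show that strong peaks of both proteins lie apart. The gap between both NIPBL features, 114664377-114664522, was covered by Rad21 peaks in all 3 unstimulated splenic lists and in 2 of 3 stimulated ones.

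In CH12F3 the strong peaks of both antibodies were too few to set apart. NIPBL was 1.39 points higher than Rad21 in the third bin (SE 1.01, limma, adjusted p = 0.235), in a comparison that called 57.4% of all tested bins. With all deposited peaks NIPBL covered 39.4 points more of the third bin (43.3% ± 5.42, n = 4, against 4.03% ± 4.001, n = 7; limma, adjusted p = 2.98e-06), and 6.40 and 12.6 points more of the first and the second. Under that setting 88.8% of all tested bins were called, so this is the share that most bins of the genome show, and the NIPBL lists are the longer ones. Rad21 was at 0% in the first bin in all 7 libraries, so the direction of that difference was fixed in advance.

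The third bin also stood high among NIPBL-covered bins of splenic cells outside the window. Of the bins with any coverage by the 20000 strongest peaks, between 0.316% and 2.001% were covered further than it in the 6 splenic libraries. Within the 40 bins of 10 kb from 114.3 to 114.7 Mb its mean was the highest without stimulation, at 42.1% against 24.4% for the next bin outside the window, 114460001-114470000. After stimulation it was again the highest, at 40.6%, with 38.7% in 114570001-114580000 close behind, and in stimulated replicate 2 that bin was above it (49.8% against 45.0%). In stimulated replicate 3 the third bin was in place 3 of the 40. The lead after stimulation was lost at greater depth. Among the 90000 strongest peaks the mean was in place 2, at 44.3% against 48.6% in 114570001-114580000. With all deposited peaks it was in place 6, at 49.3% against 64.4% in that same bin. Without stimulation the third bin stayed in place 1 at both of these depths. In CH12F3 other bins led. In unstimulated NIPBL replicate 1 it was 114460001-114470000 with 51.95%, in stimulated replicate 1 the bin starting at 114310001 with 20.4%, and in both second replicates the bin starting at 114490001, with 13.1% unstimulated and 14.1% stimulated. These orders are descriptions and carry no test.

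The end of the window that faces the J segments held few peaks of either protein. Mature B cells and B lymphoma lines do not carry all of the sequence upstream of Emu, and copy number was not analysed. Fewer bound sites and less DNA therefore cannot be told apart there. Of the 421 peaks 16 began at or above 114668001, and all 16 were NIPBL peaks. With all deposited peaks the fourth bin, which begins at 114670001, had a mean of 0.38% to 1.34% in the 4 NIPBL groups and 0% in every Rad21 group. The strongest of these, 114671337-114671544 in stimulated CH12F3 replicate 1, was 7.97-fold enriched and was the strongest peak of the whole window in that list, while the other 9 NIPBL lists had theirs at lower positions. Peaks at the narrowest width in the lists, 51 bp, made up 113 of the 421.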

How the data were processed

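The data are 26 deposited peak lists, each from 1 ChIP-seq library of NIPBL or Rad21. Per the submitters' processing notes, Bowtie2 and MACS2 were used with mm9, in versions that those notes do not state. For each peak the authors deposited a fold enrichment (a ratio), a -log10 p-value, a -log10 q-value and a score, which served here only to rank, filter or describe peaks inside 1 list. Depth is unknown. The 5 input samples were not analysed here. Titles set the groups; a cell type field that calls the Rad21 samples of both cell lines splenic was not followed. NIPBL titles of CH12F3 without a number were taken as replicate 1.

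Per list, the 20000 peaks of highest -log10 p were kept (main chromosomes, ties by fold and then position). The percent of bases under them was computed for the 40 kb window, its 1 kb parts and every 10 kb bin of the genome. Each bin with coverage in at least 2 of the compared libraries entered limma 3.58.1 in R 4.3.3 (mean-variance trend), and a call needed an adjusted p (Benjamini-Hochberg, all tested bins) under 0.05. Rad21 libraries of both cell lines were fitted together. Window values were compared by two-sided exact permutation of libraries, within states where stimulation is a covariate, with adjustment over 9 comparisons. The bin fit was tested on simulated data (values shuffled between libraries, changes added to some bins). It recovered most of the larger changes, except for stimulation with NIPBL in CH12F3 and with Rad21 in spleen, where it recovered none, so an absent call there says little. For stimulation with splenic NIPBL its calls also held unchanged bins far above the nominal rate, with 61 beside 41 and 79 changed ones. The rate was exceeded to a lesser extent in 3 other comparisons. Unchanged bins came to 24 for stimulation with Rad21 in CH12F3, 15 for i3CBEs minus CH12F3 and 6 for NIPBL minus Rad21 in spleen. By rule every comparison gives the bin of highest mean coverage, and other bins where called or not overlapping. The window, lists, rules and tests were chosen with earlier results of these data known. Permutation tests used numpy 2.4.6, tables pandas 2.3.3 and plots matplotlib 3.10.9, all under Python 3.11.15.

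Pairing of same-numbered libraries was checked by correlating their deviations from the group means over bins. For Rad21 in CH12F3 this gave 0.423, 0.651 and 0.376, but some libraries of unlike number correlated as well. Unstimulated replicate 3 with stimulated replicate 1 gave 0.438, unstimulated 1 with stimulated 3 gave 0.358, and unstimulated 2 with stimulated 4 gave 0.607. The remaining pairs were negative. The numbers thus do not single out pairs, and a block on them was run only as an alternative. Among the 20000 strongest peaks no bin of the window passed the filter there, with or without a replicate block. In spleen the numbers did not pair the libraries. Whatever needs an mm9 genome or annotation (gene borders, other constant-region genes, marker promoters, motifs, printed sequence) was not analysed here.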

Additional observations from a re-analysis of the deposited data

Results flagged for a closer look

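In 11 checks of groups of 4 or more libraries, 3 values of Rad21 in stimulated CH12F3 cells lay far from the rest of their group, where chance flags about 1 check in 20 of continuous values, a rate that was not tested here and that does not hold for a value set against several at 0. Replicate 4 had 0.1275% of the 40 kb window and 0.51% of the third bin covered by its 20000 strongest peaks, and the other three replicates had 0%. Both values come from the same 51 bp peak, which ranked 17905 in its list. Replicate 1 had its strongest peak of the window at 68.58% of its list, counted from the strongest, against 13.54%, 16.74% and 18.24% in the other replicates. Its list, of 95464 peaks, is the shortest of the 4.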

How the results depend on the processing

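Settings other than the 20000 strongest peaks were the 10000 or 40000 strongest, all deposited peaks, peaks with -log10 q of 5 or more, an equal covered length, no filter on bins, limma without its trend and, added after seeing the data, the 90000 strongest (not run for i3CBEs). Values are differences in percentage points, and where a cause is not named it was not tested. In the third bin, NIPBL in CH12F3 minus spleen kept its direction but lost its call with the 40000 strongest (-31.5), the 90000 strongest (-35.8), all peaks (-10.8), equal covered length (-30.5) and no filter (-39.8, more bins being tested). NIPBL minus Rad21 in spleen lost it with all peaks (10.4) and the 90000 strongest (27.97). Calls were gained with all peaks by Rad21 in CH12F3 minus spleen (-39.4) and by NIPBL minus Rad21 in CH12F3 (39.4, and 20.9 with the -log10 q limit). The effect of stimulation on splenic NIPBL turned to 14.3 with equal covered length and was larger in its own direction with the 40000 strongest (-6.10), the 90000 strongest (-7.31), all peaks (-9.59) and the -log10 q limit (-10.7; limma, adjusted p = 0.384), none called. For NIPBL in CH12F3 it went from -3.07 to -21.9 with the 40000 or 90000 strongest and to -32.4 with the -log10 q limit, uncalled. The second bin's difference between proteins in spleen was called under no other setting in its direction: it was 4.32 and 1.43 with the 10000 and 40000 strongest, 15.2 with the -log10 q limit, 2.29 with equal covered length and 5.36 with no filter or no trend. It turned to -18.6 with all peaks and -16.2 with the 90000 strongest.

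For the 40 kb window, splenic NIPBL after stimulation turned to -0.302 with the 10000 strongest, -4.33 with all peaks and -3.54 with the -log10 q limit, and Rad21 in CH12F3 to -0.00563 with all peaks, all uncalled. NIPBL in CH12F3 minus spleen lost its call with the 10000 strongest (-10.7), the 40000 strongest (-10.2) and equal covered length (-8.21). Rad21 in CH12F3 minus spleen gained one with all peaks (-31.8) and the 90000 strongest (-14.2). NIPBL minus Rad21 in spleen lost it with the 40000 strongest (8.23) and the 90000 strongest (1.30) and turned to -5.49 with all peaks. In CH12F3 it gained one with all peaks (14.9) and the -log10 q limit (6.99).

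Leaving out each library in turn gave, in the third bin, -7.82 to 4.70 for splenic NIPBL after stimulation, -2.75 to 0.075 for Rad21 in CH12F3 minus spleen and -0.0816 to 2.13 for NIPBL minus Rad21 in CH12F3, none called. Both larger differences kept their calls, at -42.8 to -37.1 for NIPBL in CH12F3 minus spleen and 36.5 to 42.1 for NIPBL minus Rad21 in spleen. The second bin in spleen ranged from 3.70 to 6.40 (limma, adjusted p = 0.0253 to 0.101) and lost its call in 9 of 12 cases. Over 40 kb the ranges were -1.63 to 3.02 for splenic NIPBL after stimulation, -12.4 to -10.3 for NIPBL in CH12F3 minus spleen (the call was lost in all 10 cases, where fewer arrangements exist), -0.687 to 0.0188 for Rad21 in CH12F3 minus spleen and -0.0204 to 0.532 for NIPBL minus Rad21 in CH12F3.

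With a replicate block the third bin of splenic NIPBL differed by -1.46 between the states (limma, adjusted p = 0.987), and no call in the window changed. For Rad21 in CH12F3 the block, in which stimulated replicate 4 has no partner, moved the third bin from 3.71 to 4.78 at the 90000 strongest, uncalled. Over the genome the block left 0 called bins in place of 547 for splenic NIPBL, 941 in place of 638 for splenic Rad21 and 0 in place of 6 for Rad21 in CH12F3.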
